A study of Homo sapiens with 4 samples.

Results

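MOLM13 cells exposed for 12 h to SD70 and MI-503 together were compared with MOLM13 cells exposed for 12 h to the vehicle DMSO, across protein-coding genes. The genes compared were those with a mean of at least 1 FPKM (fragments scaled for exon length and for library size) over the 2 libraries. This rule kept 9860 of the 19951 protein-coding genes, among 58735 genes of all types, and left 10091 below the minimum. The series holds 4 libraries of total RNA from this one human leukaemia cell line, all at 12 h: DMSO, SD70 alone, MI-503 alone, and both agents. Each group is 1 library, so no difference has a replicate check and no p-value is given. Doses are not given in the sources used here.

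MOLM13 is an acute myeloid leukaemia line with the MLL::AF9 fusion, in which the DNA-binding end of MLL is joined to AF9, a protein of transcription elongation complexes. MLL fusion proteins need the adaptor menin to reach their target genes, and MI-503 is a small molecule that occupies the pocket of menin where MLL binds. SD70 is described as an inhibitor of KDM4C, an enzyme that removes methyl groups from histone H3. Genes held high by MLL fusions keep myeloid progenitors immature, and their loss is known to go with macrophage-like maturation in such cells.

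Depth was 15550915 reads in the DMSO library and 15093444 in the combination library, with 14695753 under SD70 and 15937390 under MI-503. Markers of acute myeloid leukaemia were present in both libraries compared, with 8 of 10 measured. The lineage factor SPI1 stood at 106 FPKM in DMSO and 129 in the combination, CEBPA at 114 FPKM in DMSO and 173 in the combination, and the surface protein CD33 at 25.2 FPKM in DMSO and 27.5 in the combination. KIT and CD68 lay below the minimum. Of protein-coding genes past the minimum, markers of T cells, B cells and erythroid cells counted 0 of 7, 0 of 6 and 0 of 7. TRAC, a T cell receptor segment, is not typed as protein-coding and so is outside these counts. For the NK cell, megakaryocyte and stromal or epithelial lists the counts were 2 of 6, 1 of 6 and 1 of 8. Haemoglobin genes HBA1, HBA2 and HBB, the T cell gene CD3E and the B cell gene MS4A1 were at 0 in both libraries. Summed over each list, T cell markers came to 11.2 FPKM in DMSO and 14.9 in the combination, of which TRAC made up 10.7 and 13.98. NKG7, a granule gene of NK cells, was the highest of these markers, at 14.3 FPKM in DMSO and 48.4 in the combination; the other measured ones, NCAM1, GP1BA and KRT18, were under 4 FPKM in both libraries. Ribosomal RNA of mitochondria took 0.853% of reads in DMSO and 1.43% in the combination, and protein-coding genes took 97.1% and 96.0%. The part of these shares in the results was not tested.

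In all, 376 genes (3.81%) were at least 2-fold higher and 315 (3.19%) at least 2-fold lower in the combination, together 691 (7.01%). The list counts below stand beside these shares. Fold here is the difference in log2(FPKM + 1), which understates the change of low genes. The median over all 9860 genes was -0.10 on this scale, with quartiles of -0.42 and 0.21. Larger differences lay mostly on the higher side: 43 genes were at least 4-fold higher and 6 at least 4-fold lower. At 1.5-fold the order turned, with 1012 genes (10.3%) higher and 1495 (15.2%) lower. The split between directions moved with the scaling and with the minimum. With a mean of at least 5 FPKM, 193 genes were higher and 282 lower. This minimum too is a mean over the 2 libraries. Genes low in DMSO can still pass it through the combination, here and in the list counts below. With both libraries set to the same read total, 434 genes were higher and 232 lower, and with the ribosomal protein genes centred on 0, 245 were higher and 719 lower. That centring also raised the count of lower genes from 20 to 40 among the mitosis genes, from 14 to 26 among those of replication and from 10 to 23 among MYC targets. It took the count of higher genes from 14 to 9 for cholesterol synthesis and from 9 to 5 for macrophage maturation. With equal read totals the mitosis count was 13. Of the 376 higher genes, 104 were under 1 FPKM in DMSO and so passed the minimum only through the combination; 5 of the 315 lower genes were under 1 FPKM in the combination.

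**Figure D1:**
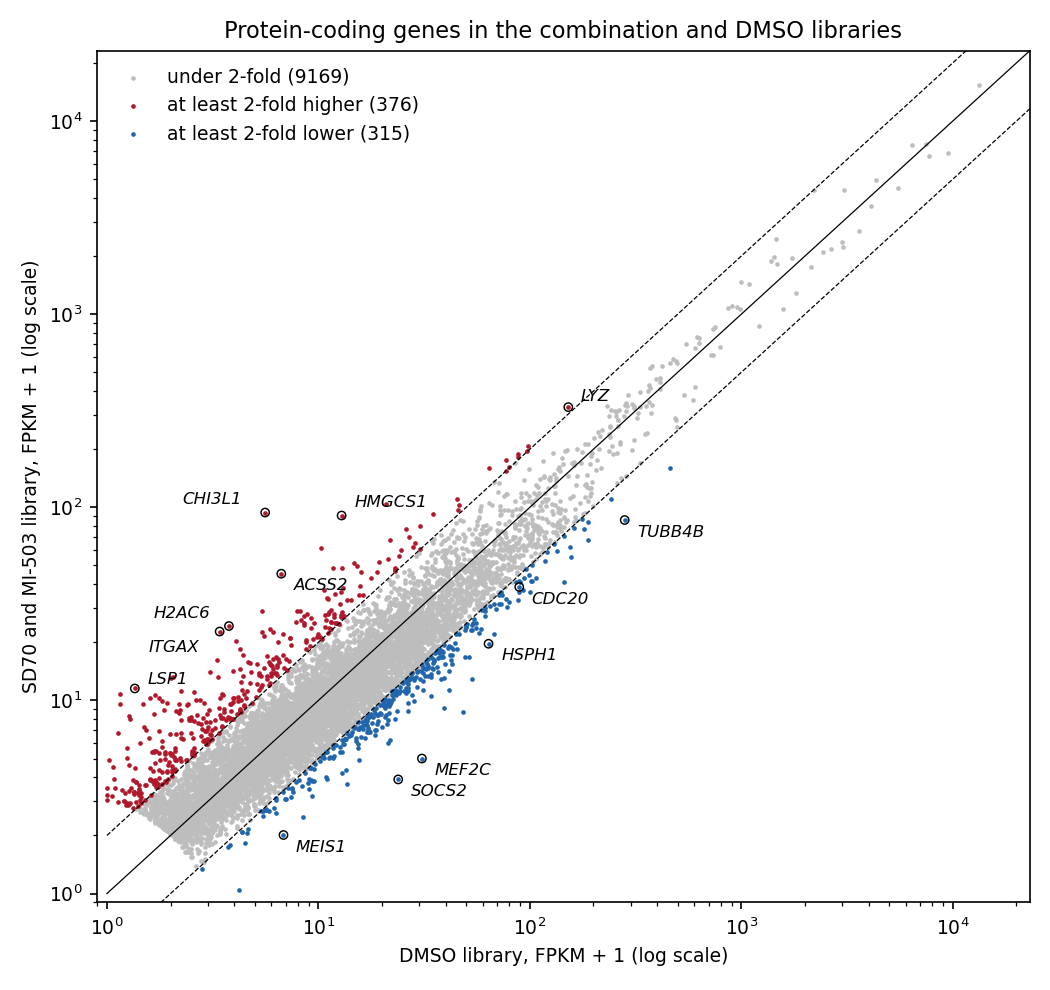
Each point is 1 of 9860 protein-coding genes, by FPKM + 1 in the DMSO library (x axis, log scale) and in the library with both agents (y axis, log scale); dashed lines mark 2-fold. There are 376 genes above the upper line and 315 below the lower line, and the region near the origin is empty where the mean is under 1 FPKM.

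Among genes of 20 to 100 FPKM in DMSO 1.28% were at least 2-fold higher and 8.09% at least 2-fold lower, and among those of 5 to 20 FPKM the shares were 1.99% and 2.76%. The 294 genes under 1 FPKM in DMSO passed the minimum only through the combination, so their direction is fixed by the minimum and nothing is read from it. The level in DMSO also enters the difference itself, so these shares are a description. In bulk RNA, fewer cells of a type and less RNA per cell cannot be told apart, here or in the results that follow. Genes with short spans were called more often: 4.95% higher and 4.02% lower among the 2465 shortest, against 1.95% and 1.91% among the 2465 longest. On chromosome 19, 48 of 757 genes were higher and 10 lower.

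Genes that MLL fusions and menin are known to hold active were lower in part. Of 31 measured members of that list, 10 were at least 2-fold lower and none 2-fold higher, with a median of -0.49. The 2-fold lower share was 3.19% over all genes and 8.09% among genes of 20 to 100 FPKM in DMSO. The list of 24 housekeeping reference genes had a median of -0.38, with none 2-fold lower. MEF2C, a transcription factor tied to self-renewal of MLL-rearranged leukaemia, had 29.9 FPKM in DMSO, 4.32 with SD70, 11.9 with MI-503 and 4.004 with both agents. It was lowest in the libraries with SD70 and intermediate with MI-503, and the combination was 7.46-fold lower (95% interval 6.91 to 8.08); the interval is exact, covers counting error only, and compares 2 libraries. SOCS2, a feedback inhibitor of cytokine signalling, had 22.9 FPKM in DMSO, 2.54 with SD70, 9.22 with MI-503 and 2.901 with both agents, and the combination was 7.88-fold lower (95% interval 6.99 to 8.91). MEIS1, the homeobox partner of HOXA9, stood at 5.84 FPKM in DMSO, 1.45 with SD70, 3.16 with MI-503 and 1.01 with both agents. PBX3, the third protein of that complex, stood at 25.5 FPKM in DMSO, 10.6 with SD70, 15.2 with MI-503 and 7.79 with both agents. Both were lower in the combination than in any other library. HOXA9 itself was at 25.1 FPKM in DMSO and 16.1 in the combination, a log2 difference of -0.61, and so under 2-fold. The other members past 2-fold were CPEB2, ZNF521, CDKN2C, SATB1, JMJD1C and MBNL1. DACH1, a repressor outside the list that was among the 15 lowest genes, stood at 47.4 FPKM in DMSO, 10.02 with SD70, 20.5 with MI-503 and 7.68 with both agents. MYB (-0.24), FLT3 (-0.35) and BCL2 (-0.29) differed by less than 2-fold on the log2 scale. The genes of the machinery itself lay close together: among 21 members of the menin, MLL, DOT1L and elongation list none passed 2-fold, with MEN1 at 20.3 FPKM in DMSO and 15.7 in the combination and KMT2A at 2.03 FPKM in DMSO and 2.17 in the combination. KDM4C, the enzyme SD70 is described to inhibit, was at 3.699 FPKM in DMSO and 4.25 in the combination.

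**Figure D2:**
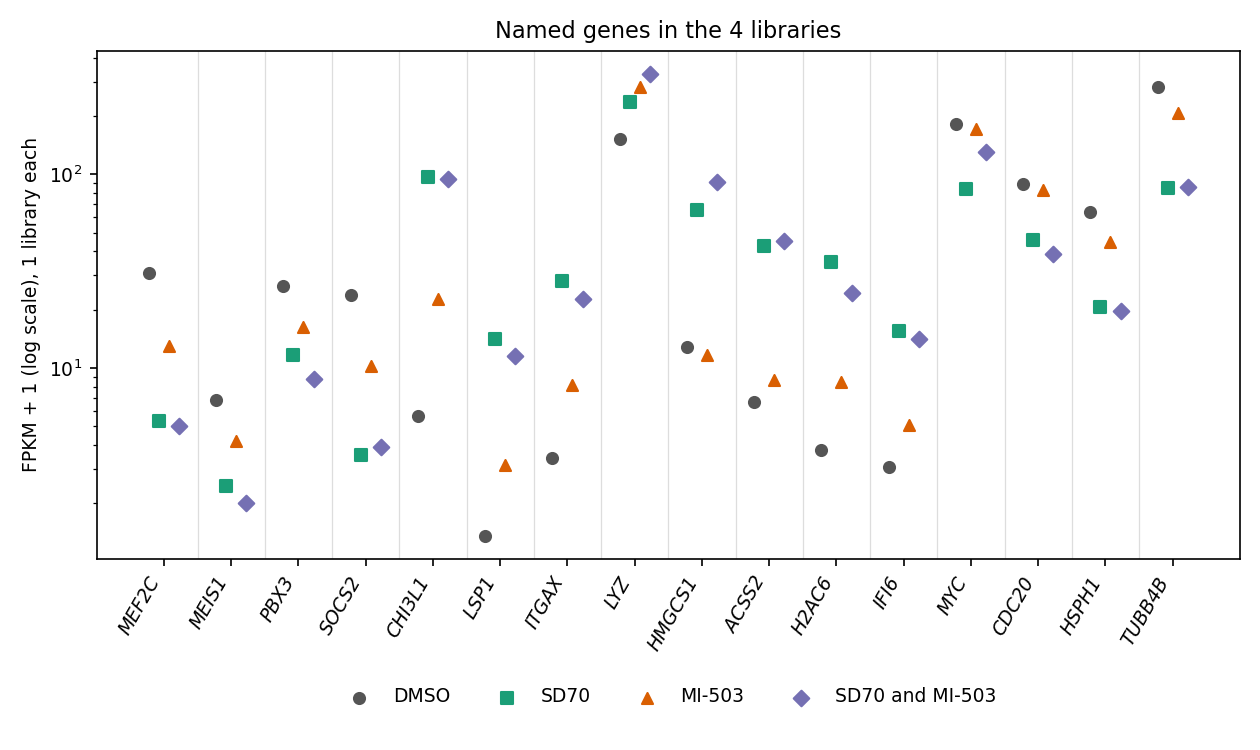
Levels of 16 named genes (x axis) in each of the 4 libraries, as FPKM + 1 on a log scale (y axis); each symbol is 1 library. For MEF2C, SOCS2, CHI3L1, LSP1 and TUBB4B the combination lies beside SD70, and for each of these genes MI-503 lies between those libraries and DMSO.

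Genes of macrophage maturation were higher in part. In that list 9 of 19 measured members were at least 2-fold higher and none lower, with a median of 0.74. The list held 39 genes, of which 11 had no reads in DMSO and 4 had none in the combination. With a mean of at least 5 FPKM 6 of 14 were higher, with a median of 0.70. With a pseudocount of 5 the count was 5 of 19 and the median 0.49. CHI3L1, a secreted chitinase-like protein of macrophages, had 4.602 FPKM in DMSO, 96.2 with SD70, 21.8 with MI-503 and 92.98 with both agents and was 20.2-fold higher (95% interval 17.7 to 23.1). Its difference of 4.07 in log2(FPKM + 1) was the largest among the genes ranked on that scale, although the ratio of LSP1 was larger, and the 2 libraries with SD70 lay close to each other. CSF1R, the receptor for macrophage colony-stimulating factor, stood at 3.39 FPKM in DMSO, 17.2 with SD70, 8.77 with MI-503 and 16.1 with both agents. LYZ, the lysozyme of monocytes and granulocytes, stood at 151 FPKM in DMSO, 237 with SD70, 281 with MI-503 and 329 with both agents, and here the combination was the highest library. The co-stimulatory protein CD86, the receptor LILRB4, the adaptors FCER1G and TYROBP, AIF1 and TLR4 made up the rest. Lineage transcription factors differed less: none of 25 passed 2-fold, CEBPB was at 10.4 FPKM in DMSO and 21.5 in the combination and IRF8 at 62.1 FPKM in DMSO and 51.9 in the combination. Early granule genes were mixed. PRTN3, the proteinase of azurophil granules, stood at 3018 FPKM in DMSO, 1567 with SD70, 3767 with MI-503 and 2236 with both agents, while CST7, an inhibitor of cathepsins, was at 29.2 FPKM in DMSO and 79.4 in the combination.

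Adhesion and surface genes went the same way as the maturation genes. In the integrin and leukocyte adhesion list 9 of 21 were at least 2-fold higher and none lower, with a median of 0.89. With a mean of at least 5 FPKM 7 of 16 were higher, but LSP1 and ITGB7 reached that mean only through the combination. With a pseudocount of 5 the count was 5 of 21 and the median 0.58. ITGAX, the alpha chain known as CD11c, had 2.41 FPKM in DMSO, 27.1 with SD70, 7.19 with MI-503 and 21.7 with both agents and was 9.01-fold higher (95% interval 7.92 to 10.3). ITGB7, a beta chain of gut-homing integrins, was 11.9-fold higher (95% interval 9.297 to 15.4), and its span overlaps ZNF740 on the other strand. LSP1, an actin-binding protein of leukocytes, went from 0.355 to 10.5 FPKM on 29 reads in DMSO and was 29.6-fold higher (95% interval 20.5 to 44.5). It passed the minimum only through the combination, and its span overlaps PRR33 on the other strand. ITGAM, the CD11b chain, was at 2.43 FPKM in DMSO and 9.25 in the combination, and FERMT3, which activates integrins, also passed 2-fold. Chemotactic and related receptors had 5 of 15 higher, but CNR2, C3AR1 and PTAFR among them passed the minimum only through the combination; with a mean of at least 5 FPKM 2 of 10 were higher. CXCR4, the receptor that holds cells in the marrow, stood at 17.9 FPKM in DMSO and 45.1 in the combination. Among leukaemia surface antigens 5 of 12 were higher, with CD38 at 3.77 FPKM in DMSO and 11.4 in the combination and CD244 at 3.24 FPKM in DMSO and 17.4 in the combination. Genes of the phagocyte oxidase gave no common direction: 2 of 8 were 2-fold higher, 4 lay above 0 and 4 below, and with a mean of at least 5 FPKM 0 of 6 passed 2-fold, with a median of -0.05. CYBB, its catalytic subunit, stood at 1.23 FPKM in DMSO and 7.94 in the combination. NCF1 has near-identical copies, so its value is uncertain. Cytoskeletal genes ran the other way, with 5 of 23 lower and 1 higher: TUBB4B, a beta tubulin, stood at 280.0 FPKM in DMSO, 83.8 with SD70, 207 with MI-503 and 84.96 with both agents, and TUBA1A, an alpha tubulin, at 9.25 FPKM in DMSO, 63.5 with SD70, 17.5 with MI-503 and 60.6 with both agents. Their spans overlap FAM166A and TUBA1C, each on the other strand.

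**Figure D3:**
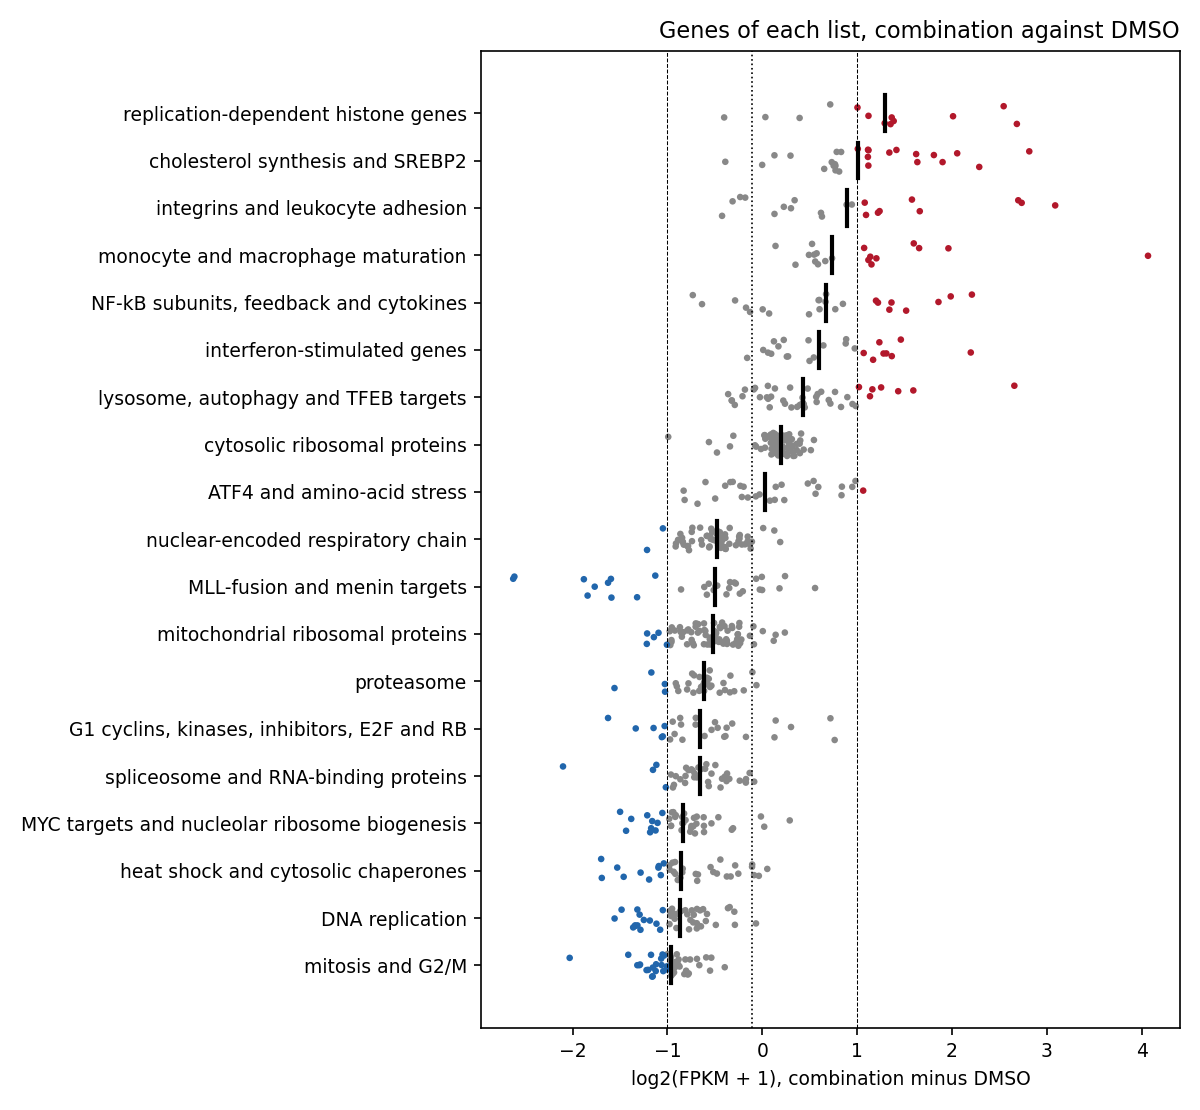
Points are measured genes of 19 lists, by their difference in log2(FPKM + 1), combination minus DMSO (x axis); the bar is the list median, the dotted line the median of all genes (-0.10), and dashed lines mark 2-fold. Lists run from histone genes (median 1.29) at the top to mitosis genes (median -0.96) at the bottom, and the ribosomal protein list has no member past 2-fold.

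Genes of NF-kB signalling were higher in part: 8 of 23 measured members passed 2-fold and none was 2-fold lower, with a median of 0.67. With a mean of at least 5 FPKM 6 of 18 were higher, but RELB and BCL3 reached that mean only through the combination. With a pseudocount of 5 the count was 4 of 23 and the median 0.50. RELB, a subunit of the non-canonical pathway, stood at 1.77 FPKM in DMSO, 11.3 with SD70, 2.301 with MI-503 and 9.03 with both agents. BCL3, a nuclear cofactor of NF-kB subunits, stood at 1.43 FPKM in DMSO, 12.8 with SD70, 2.87 with MI-503 and 8.64 with both agents. TNFAIP3, a deubiquitinase that limits the pathway, was at 5.46 FPKM in DMSO and 15.4 in the combination, and the chemokine CXCL8, which passed the minimum only through the combination, at 0.524 FPKM in DMSO and 6.06 in the combination. SOD2 went against the list, at 7.21 FPKM in DMSO and 3.94 in the combination. Immediate early genes had 3 of 16 higher, against 3.81% of all genes. Among the 3 was BTG2, at 2.95 FPKM in DMSO and 13.2 in the combination. CYP1B1, a target of the aryl hydrocarbon receptor, stood at 19.8 FPKM in DMSO, 143 with SD70, 35.95 with MI-503 and 102 with both agents, with SD70 alone the highest; its span overlaps RMDN2.

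Interferon-stimulated genes had 8 of 24 members at least 2-fold higher and none lower, with a median of 0.59. Of the 8, IFIT3, OAS1 and GBP2 passed the minimum only through the combination; with a mean of at least 5 FPKM 4 of 11 were higher, with a median of 0.27, and with a pseudocount of 5, 2 of 24. IFI6, a mitochondrial protein induced by interferon, had 2.07 FPKM in DMSO, 14.6 with SD70, 4.07 with MI-503 and 13.1 with both agents and was 6.33-fold higher (95% interval 4.21 to 9.88). STAT2, a subunit of the factor that interferon activates, was at 8.201 FPKM in DMSO and 22.7 in the combination. MHC class I genes, which present peptides to T cells, had 3 of 17 higher and 1 lower, against 3.81% and 3.19% of all genes. Their reads can be shared between near-identical copies. The interferon element, searched on both strands as GAAANNGAA, was in 38.9% of the 18 interferon-stimulated promoters found, against 6.7% of the promoters of all genes compared. The 7 promoters with the element had a median log2 difference of 0.65 and the 11 without it 0.54. The IFI6 promoter, from RefSeq on GRCh38.p14 (chr1:27672143-27672442, minus strand, 250 bases before to 50 after the start), is shown because it holds 3 matches, in capitals, at 156, 115 and 93 bases before the start.
IFI6: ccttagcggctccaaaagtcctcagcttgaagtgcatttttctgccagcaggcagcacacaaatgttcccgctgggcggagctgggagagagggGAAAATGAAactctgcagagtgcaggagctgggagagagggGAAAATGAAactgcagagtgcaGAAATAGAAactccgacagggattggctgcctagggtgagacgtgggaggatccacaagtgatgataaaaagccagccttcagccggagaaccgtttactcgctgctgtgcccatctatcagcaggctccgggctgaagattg

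Replication-dependent histone genes mostly lay below the minimum. Of 53 listed genes 13 passed the minimum, and of these 9 were at least 2-fold higher and none lower, with a median of 1.29. Of the 9, 5 were under 1 FPKM in DMSO (H2BC5, H2BC11, H2BC21, H4C8 and H4C12) and passed only through the combination, so this count is no support for a direction. With no minimum 9 of 37 were higher and the median was 0.38, and with a pseudocount of 5, 2 of 13 were higher and the median was 0.50. H2AC6 had 2.78 FPKM in DMSO, 34.4 with SD70, 7.49 with MI-503 and 23.3 with both agents and was 8.39-fold higher (95% interval 6.54 to 10.9), on 70 reads in DMSO and 601 in the combination. H2BC5 stood at 0.760 FPKM in DMSO, 12.5 with SD70, 2.57 with MI-503 and 9.28 with both agents and was 12.2-fold higher (95% interval 6.42 to 26.1), on 10 reads in DMSO. These mRNAs mostly lack the poly(A) tail, histone genes are near-identical to each other, and whether the libraries were selected for poly(A) is not given in the sources used here. H2AZ1, a variant histone of cycling cells, was lower, at 179.8 FPKM in DMSO and 76.3 in the combination. A TATA box (TATAAA) was in 76.9% of the 13 histone promoters and 5.3% of all; the 10 with it had a median of 1.15 and the 3 without it 1.35. The H2AC6 promoter (chr6:26123922-26124221, plus strand) is shown for its TATA box, 31 bases before the start, and 3 CCAAT boxes (CCAAT, either strand), in capitals.
H2AC6: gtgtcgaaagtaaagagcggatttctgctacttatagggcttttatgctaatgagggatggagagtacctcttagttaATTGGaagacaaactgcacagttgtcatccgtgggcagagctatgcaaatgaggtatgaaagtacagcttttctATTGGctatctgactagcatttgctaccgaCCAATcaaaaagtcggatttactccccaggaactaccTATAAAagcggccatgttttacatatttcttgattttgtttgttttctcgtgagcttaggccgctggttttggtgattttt

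Genes driven by MYC and those that build ribosomes in the nucleolus were lower as a group. Of 41 measured members 10 were at least 2-fold lower, 34 at least 1.5-fold lower and none 2-fold higher, with a median of -0.83. Over all genes the shares lower were 3.19% at 2-fold and 15.2% at 1.5-fold. MYC itself stood at 181 FPKM in DMSO, 83.2 with SD70, 169 with MI-503 and 130.0 with both agents, so the combination lay between DMSO and SD70, and was 1.39-fold lower (95% interval 1.34 to 1.44) than DMSO. LDHA, the lactate dehydrogenase of glycolysis, had 156 FPKM in DMSO, 44.6 with SD70, 126 with MI-503 and 54.6 with both agents and was 2.86-fold lower (95% interval 2.77 to 2.95). UTP20 and NOP16, factors of ribosome assembly, were at 14.4 FPKM in DMSO and 4.69 in the combination and at 26.8 FPKM in DMSO and 9.69 in the combination. ODC1, the first enzyme of polyamine synthesis, was at 93.3 FPKM in DMSO and 42.3 in the combination. NPM1, the abundant nucleolar protein, was at 412 FPKM in DMSO and 408 in the combination. POLR3G, a subunit of RNA polymerase III found in immature cells, was at 11.9 FPKM in DMSO and 3.201 in the combination. The ribosomal protein genes did not follow. None of 76 passed 2-fold, and the median was 0.20, or 0.26 when FPKM totals were made equal and 0.28 when read totals were; it is 0 by construction where these genes are the reference. RPS26, which has many copies in the genome, was lowest, at 130.2 FPKM in DMSO and 65.03 in the combination. Of 44 translation initiation and elongation factors none passed 2-fold, 15 were at least 1.5-fold lower and 1 higher, and the median was -0.27. EEF2, an elongation factor, was at 1451 FPKM in DMSO and 2462 in the combination. The MYC motif, the E-box CACGTG, was in 36.1% of 36 promoters of the list and 10.9% of all; medians were -0.84 for promoters with it and -0.81 for those without. The LDHA promoter (chr11:18394313-18394612, plus strand) is shown for E-boxes at 185 and 87 bases before the start, in capitals.
LDHA: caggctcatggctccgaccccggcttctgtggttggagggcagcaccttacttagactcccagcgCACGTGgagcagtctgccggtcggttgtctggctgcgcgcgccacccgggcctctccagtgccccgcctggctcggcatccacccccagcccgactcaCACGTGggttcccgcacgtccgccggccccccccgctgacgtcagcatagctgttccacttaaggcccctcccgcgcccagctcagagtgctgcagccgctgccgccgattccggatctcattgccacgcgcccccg

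Genes of DNA replication and mitosis were lower almost throughout. For replication 14 of 47 were at least 2-fold lower, 40 at least 1.5-fold lower and none 1.5-fold higher, with a median of -0.86. RFC3, a subunit of the clamp loader, stood at 48.3 FPKM in DMSO, 15.7 with SD70, 38.7 with MI-503 and 15.7 with both agents. MCM4, part of the replicative helicase, was at 154 FPKM in DMSO and 61.1 in the combination, and PCNA, the sliding clamp, at 332 FPKM in DMSO and 169 in the combination. For mitosis and G2/M 20 of 50 were at least 2-fold lower and 47 at least 1.5-fold lower, with a median of -0.96. Over all genes 3.19% were at least 2-fold lower and 15.2% at least 1.5-fold lower. Among genes of 20 to 100 FPKM in DMSO 8.09% were 2-fold lower. With a pseudocount of 5 the 2-fold counts were 7 of 47 for replication and 7 of 50 for mitosis. CDC20, an activator of the anaphase-promoting complex, had 88.1 FPKM in DMSO, 44.8 with SD70, 81.7 with MI-503 and 37.7 with both agents and was 2.34-fold lower (95% interval 2.18 to 2.503). CCNB1, the mitotic cyclin, stood at 86.7 FPKM in DMSO, 35.98 with SD70, 72.8 with MI-503 and 31.9 with both agents, and PLK1, a mitotic kinase, at 41.3 FPKM in DMSO, 18.9 with SD70, 34.6 with MI-503 and 17.997 with both agents. ARHGAP11A, a GTPase-activating protein of dividing cells, was lowest, at 52.02 FPKM in DMSO and 11.98 in the combination; it has a near-identical partial copy. The proliferation marker MKI67 was at 55.04 FPKM in DMSO and 30.95 in the combination. Among G1 genes 6 of 28 were lower, and with a pseudocount of 5 only 1 was. CDKN2C, an inhibitor of CDK4 and CDK6, was at 66.96 FPKM in DMSO and 21.03 in the combination, and CDK6 at 44.5 FPKM in DMSO and 24.2 in the combination. CDKN1A, an inhibitor induced by p53, was at 58.6 FPKM in DMSO and 72.6 in the combination. Of 27 p53 targets 2 were higher and 1 lower, against 3.81% and 3.19% of all genes, so nothing is read from these counts. RRM2, which makes deoxynucleotides, was at 41.9 FPKM in DMSO and 14.4 in the combination.

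The CHR motif (TTTGAA), which DREAM and B-MYB complexes bind, was in 69.8% of 43 mitosis promoters and 9.6% of all 8142 promoters of compared genes; it was in 18.4% of lower and 12.7% of higher genes. The E2F site (TTTNNCGC) split the replication list evenly: 6 of 20 genes with it and 6 of 20 without it were 2-fold lower, with medians of -0.90 and -0.87. Within the mitosis list, the 30 promoters with the motif had a median of -0.95 and the 13 without it -0.93. CCAAT boxes were in 76.7% of mitosis promoters and 37.3% of all. CDC20 (chr1:43358731-43359030, plus strand) and PLK1 (chr16:23678639-23678938, plus strand) are shown because each holds both, in capitals: in CDC20 the CHR lies 178 and 65 bases before the start, and in PLK1 29 bases before it.
CDC20: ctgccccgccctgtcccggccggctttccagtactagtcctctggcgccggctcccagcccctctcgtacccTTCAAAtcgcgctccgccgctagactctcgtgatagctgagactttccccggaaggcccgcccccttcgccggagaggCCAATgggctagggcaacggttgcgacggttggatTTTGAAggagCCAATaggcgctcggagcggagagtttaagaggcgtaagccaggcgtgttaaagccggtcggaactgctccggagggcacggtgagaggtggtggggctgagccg
PLK1: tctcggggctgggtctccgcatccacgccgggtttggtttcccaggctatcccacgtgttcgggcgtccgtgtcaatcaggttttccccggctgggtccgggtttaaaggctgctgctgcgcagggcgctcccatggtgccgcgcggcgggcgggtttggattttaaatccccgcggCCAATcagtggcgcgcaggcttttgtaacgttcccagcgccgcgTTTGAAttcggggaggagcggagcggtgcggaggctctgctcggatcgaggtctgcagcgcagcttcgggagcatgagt

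**Figure D4:**
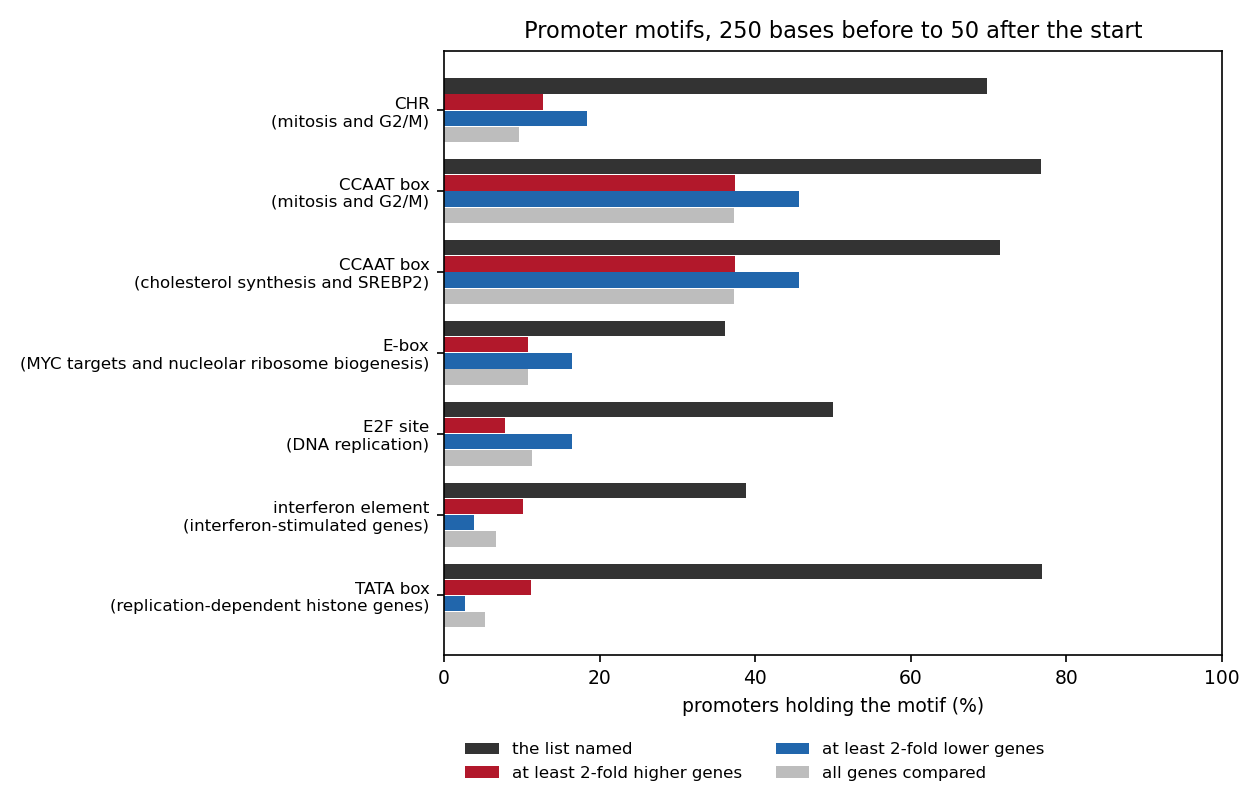
Bars give the share of promoters (x axis, %) that hold each motif, for the gene list named under it, for genes at least 2-fold higher, for genes at least 2-fold lower and for all genes compared. The CHR is in 69.8% of mitosis promoters and 9.6% of all, and the TATA box in 76.9% of histone promoters and 5.3% of all.

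Genes of cell death gave no common direction. Of 23 pro-apoptotic genes 1 was 2-fold higher and 1 lower, near the 3.81% and 3.19% of all genes. BMF, a BH3-only protein that binds BCL2, stood at 3.07 FPKM in DMSO, 27.1 with SD70, 6.68 with MI-503 and 19.4 with both agents and was 6.32-fold higher (95% interval 5.53 to 7.24). CYCS, the cytochrome c of the respiratory chain, was at 76.5 FPKM in DMSO and 32.4 in the combination. BCL2A1, an anti-apoptotic NF-kB target that passed the minimum only through the combination, was at 0.243 FPKM in DMSO and 4.69 in the combination, and MCL1 at 73.5 FPKM in DMSO and 53.1 in the combination.

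Chaperone genes were lower in part: 10 of 36 heat shock and cytosolic chaperones were at least 2-fold lower and none 2-fold higher, with a median of -0.85. HSPH1, an exchange factor for HSP70, had 62.8 FPKM in DMSO, 19.5 with SD70, 43.5 with MI-503 and 18.7 with both agents and was 3.37-fold lower (95% interval 3.22 to 3.52). HSP90AA1, the inducible HSP90, was at 459 FPKM in DMSO and 158 in the combination. HSPE1, the mitochondrial co-chaperonin, was at 33.1 FPKM in DMSO and 9.55 in the combination. Its span overlaps HSPD1 on the other strand and HSPE1-MOB4 on the same strand. HSF1, the factor that drives these genes, was at 44.4 FPKM in DMSO and 46.1 in the combination. In the endoplasmic reticulum 6 of 28 were lower, with HSPA5, its main HSP70, at 188 FPKM in DMSO and 66.8 in the combination. With equal read totals that count was 3, and with a pseudocount of 5 it was 2. The proteasome list had 4 of 35 at least 2-fold lower and the spliceosome list 4 of 38. The share was 3.19% over all genes and 8.09% among genes of 20 to 100 FPKM in DMSO. With equal read totals the counts were 2 and 3, and with a pseudocount of 5 they were 1 and 2. At 1.5-fold 19 and 22 were lower, against 15.2% of all genes. In the spliceosome list SNRPG, a core protein of splicing particles with many pseudogenes, stood at 38.2 FPKM in DMSO and 8.14 in the combination. Genes of the ATF4 amino-acid response gave no common direction: 14 lay above 0 and 14 below, with a median of 0.03. Only 1 of 28 was 2-fold higher, near the 3.81% of all genes. That gene, DDIT3, which encodes CHOP, was at 2.84 FPKM in DMSO, 6.03 with SD70, 2.06 with MI-503 and 7.02 with both agents. DDIT4, an inhibitor of mTORC1, was at 10.4 FPKM in DMSO, 14.2 with SD70, 2.93 with MI-503 and 15.8 with both agents, lowest with MI-503 alone.

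Genes of cholesterol synthesis were higher in most cases. Of 27 measured members 14 were at least 2-fold higher, 23 at least 1.5-fold higher and none 2-fold lower, with a median of 1.01. HMGCS1, which makes HMG-CoA, had 11.9 FPKM in DMSO, 64.1 with SD70, 10.6 with MI-503 and 89.7 with both agents and was 7.55-fold higher (95% interval 7.03 to 8.12). The combination was the highest library, SD70 was second, and MI-503 lay below DMSO. LSS, which closes the sterol rings, was at 10.7 FPKM in DMSO and 47.6 in the combination, SQLE at 33.7 FPKM in DMSO and 91.5 in the combination, and INSIG1, which retains the SREBP complex, at 76.05 FPKM in DMSO and 154 in the combination. ACSS2, which makes acetyl-CoA from acetate, had 5.68 FPKM in DMSO, 41.6 with SD70, 7.67 with MI-503 and 44.3 with both agents and was 7.805-fold higher (95% interval 7.08 to 8.62); its span overlaps GGT7. FASN, the fatty acid synthase, stood at 127 FPKM in DMSO, 141 with SD70, 128 with MI-503 and 189.9 with both agents, and SREBF1, the factor for fatty acid genes, was lower, at 55.8 FPKM in DMSO and 31.8 in the combination. ABCA1, a sterol exporter that LXR induces, stood at 2.02 FPKM in DMSO, 1.42 with SD70, 6.46 with MI-503 and 1.17 with both agents, highest with MI-503 alone. The sterol element TCACNCCAC was in 4.8% of 21 cholesterol promoters and 1.1% of all, while the CCAAT box was in 71.4%. The 15 with a CCAAT box had a median of 1.12 and the 6 without it 0.43. HMGCS1 (chr5:43313363-43313662, minus strand) and MVD (chr16:88663042-88663341, minus strand), an enzyme of the mevalonate pathway, are shown for their CCAAT boxes, in capitals as ATTGG or CCAAT.
HMGCS1: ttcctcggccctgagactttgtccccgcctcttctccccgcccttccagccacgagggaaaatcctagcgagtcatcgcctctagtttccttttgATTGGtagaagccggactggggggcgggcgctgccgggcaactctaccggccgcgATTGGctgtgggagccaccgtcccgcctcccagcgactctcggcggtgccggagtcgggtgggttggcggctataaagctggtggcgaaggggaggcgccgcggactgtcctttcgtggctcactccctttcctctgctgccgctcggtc
MVD: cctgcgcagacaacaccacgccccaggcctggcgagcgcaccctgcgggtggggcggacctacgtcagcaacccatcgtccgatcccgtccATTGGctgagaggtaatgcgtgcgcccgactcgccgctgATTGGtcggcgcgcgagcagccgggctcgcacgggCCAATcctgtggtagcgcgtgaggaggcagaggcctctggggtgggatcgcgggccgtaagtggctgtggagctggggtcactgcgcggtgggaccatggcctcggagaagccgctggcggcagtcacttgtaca

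Lysosomal genes were higher in part, with 7 of 44 past 2-fold and none 2-fold lower, and a median of 0.43. With a mean of at least 5 FPKM 5 of 36 were higher. With a pseudocount of 5 the count was 3 of 44 and the median 0.29. DNASE2, the acid nuclease of lysosomes, stood at 0.693 FPKM in DMSO, 13.9 with SD70, 2.39 with MI-503 and 9.69 with both agents and was 13.99-fold higher (95% interval 9.32 to 21.9) on 25 reads in DMSO. CTSD, an acid protease, was at 18.4 FPKM in DMSO and 51.4 in the combination, and SQSTM1, an autophagy receptor, at 10.1 FPKM in DMSO and 32.5 in the combination. Like LSP1, DNASE2 passed the minimum of 1 FPKM, and also that of 5 FPKM, only through the combination. The TFEB element (TCACGTGA) was in 5 promoters of the list, none of a gene past 2-fold and with a median of 0.05; of the 27 without it 7 were higher, with a median of 0.57. Of the iron stores, FTH1 was at 63.3 FPKM in DMSO and 159 in the combination and FTL at 2201 FPKM in DMSO and 4399.6 in the combination.

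Mitochondrial genes of the nucleus were mostly lower, but in most cases by less than 2-fold. Of 61 respiratory chain genes 2 were at least 2-fold lower, near the 3.19% of all genes. At 1.5-fold 20 were lower, against 15.2% of all genes, and none was higher, with a median of -0.48. The list of housekeeping reference genes gave 8 of 24 at least 1.5-fold lower and a median of -0.38. The 76 mitochondrial ribosomal protein genes had 5 at least 2-fold lower, 33 at least 1.5-fold lower and a median of -0.52. Of 30 mitochondrial import and protease genes 5 were at least 2-fold lower and 16 at least 1.5-fold lower, with a median of -0.64. TOMM40, the import pore, was at 101 FPKM in DMSO and 40.4 in the combination. The 13 genes of mitochondrial DNA had none past 2-fold and a median of -0.21, with MT-CO1, the highest gene of the library, at 13334 FPKM in DMSO and 15419 in the combination. Glycolysis had 4 of 24 higher and 2 lower, but PFKFB4 and SLC2A6 among the higher genes passed the minimum only through the combination. With a mean of at least 5 FPKM 1 was higher and 2 lower, with a median of -0.39, and with a pseudocount of 5 none was higher and 2 were lower. The lactate transporter SLC16A1 was at 33.1 FPKM in DMSO and 12.2 in the combination. Of 13 measured polyamine genes 4 were at least 2-fold lower and 2 higher, and 11 lay below 0, with a median of -0.35. With equal FPKM totals 2 were lower. The synthetic enzymes ODC1 and SRM were among the lower genes (-1.12 and -1.05 on the log2 scale). The 2 above 0 were SAT1 and SMOX, which break polyamines down (1.53 and 1.77).

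Beside the single agents, the combination was nearest to SD70. Over the 9860 genes the median absolute log2 difference of the combination was 0.33 from DMSO, 0.24 from MI-503 and 0.10 from SD70. At least 2-fold differences numbered 691 from DMSO, 231 (2.34%) from MI-503 and 5 (0.0507%) from SD70. These comparisons share the combination library. At 1.2-fold, 87 genes were above all 3 other libraries and 57 below all of them; at 1.5-fold the counts were 4 and 1. The following genes were chosen after their values were seen. HMGCS1 and FASN were above the others, and so was CYP51A1, a sterol demethylase, at 1.24 FPKM in DMSO, 2.71 with SD70, 1.48 with MI-503 and 3.86 with both agents. Among those below were PBX3, the kinase NEK2 at 10.2 FPKM in DMSO, 7.48 with SD70, 8.74 with MI-503 and 5.51 with both agents, and the chromosomal passenger genes CDCA8 at 31.8 FPKM in DMSO, 21.3 with SD70, 28.7 with MI-503 and 16.3 with both agents and INCENP at 29.8 FPKM in DMSO, 18.5 with SD70, 24.99 with MI-503 and 14.4 with both agents. Each single-agent group is 1 library, so the spread between cultures behind these small differences is unknown.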

How the data were processed

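RNA was taken from MOLM13 cells in Trizol and made into Illumina libraries, per the labels' protocols; hg38, BWA and Bowtie are named in the submitters' processing notes, with no version or role. The deposited values were read as FPKM. Multiplied by the summed exon length of GENCODE 29, each library's values became whole reads after 1 step (100% within 0.01 read), which gave the depths. The libraries' scaling matched median-of-ratios sizes (gap of 0.0%). All 58735 gene IDs matched GENCODE 29.

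From these values the log2(FPKM + 1) difference of combination and DMSO was computed over protein-coding genes whose mean reached 1 FPKM, with at least 2-fold as the rule of size. Ratios without pseudocount carry exact 95% Clopper-Pearson intervals conditional on the reads of both libraries, which cover counting error only. The 76 gene lists, the members and the motifs were chosen with earlier results of these data known. Named genes were the 15 highest and 15 lowest by fold (mean of at least 5 FPKM, exon length of at least 300 bases), the 10 highest by level, and in each list its landmark genes, the 3 largest folds in the direction of the median and the 2 largest in the other; others are named only as members past 2-fold or as stated. List counts and medians are descriptions with no test.

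Promoters came from the RefSeq table on GRCh38.p14, which matched 8142 of the 9860 genes. The motif set was revised after a first search had been seen: the interferon and heat shock elements were shortened so that their letters could be printed, with the longer forms kept beside them, and the NF-kB site was narrowed, since its first form was in 95% of NF-kB promoters and 73.9% of all. The interferon element's longer form was in 38.9% of interferon-stimulated promoters and 2.9% of all, and the NF-kB site in 35.0% of NF-kB promoters and 12.9% of all. The heat shock element GAANNTTC was in 28.1% of chaperone promoters and 4.3% of all, and its longer form in 12.5% and 0.3%. Also searched were TCACGTGA (TFEB), TTTNNCGC (E2F), TGANTCA (AP-1), TGACNNNGC (NRF2), TNGCGTG (AHR), TGATGNAA (ATF4) and AGAGGAAGT (PU.1). The promoters printed were chosen after their values and matches were seen.

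Folds, calls and intervals were tested on simulated reads. Work was done in Python 3.11.15 with numpy 2.4.6, scipy 1.17.1 and pandas 2.3.3. A few genes are not reported here.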

Additional observations from a re-analysis of the deposited data

How the results depend on the processing

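No paired analysis was possible because each group is 1 library. For the same reason no replicate could be left out. The 691 genes at least 2-fold different (376 higher, 315 lower) became 1084 (596 and 488) with a pseudocount of 0.1 and 220 (117 and 103) with a pseudocount of 5. They became 2507 (1012 and 1495) at 1.5-fold and 126 (103 and 23) at 3-fold. With a mean of at least 5 FPKM 193 were higher and 282 lower, so that 40.6% of the genes past 2-fold were higher, against 54.4%; and with ribosomal protein genes centred on 0, 245 were higher and 719 lower; that centring moved the median of all genes by -0.20. The counts with no filter, with the same FPKM total, with the same read total and with counting intervals past 2-fold were within 1.5 times. Of 462 named genes, 159 were past 2-fold. None of these changed sign under the 7 alternatives run, but that outcome was fixed in advance. A pseudocount or a minimum leaves the sign as it is, and the scalings moved values by far less than 2-fold. Of the 159 genes, 101 stayed past 2-fold with a pseudocount of 5 and 142 with the centring. List medians near 0 changed sign under a scaling, among them the p53 targets (0.15 to -0.05 with the centring) and the ATF4 list (0.03 to -0.17). Depth limits the low genes: 104 of the higher genes were under 1 FPKM in DMSO, and H2BC5 rests on 10 reads there.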

Other observations

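Genes of other types were also measured. Of 2444 with a mean of at least 1 FPKM, 256 (10.5%) were at least 2-fold higher and 163 (6.67%) at least 2-fold lower in the combination. Among 329 lincRNA genes 30 were higher and 7 lower, and among 488 antisense genes 29 were higher and 12 lower. The 87 snoRNA genes had 11 higher and 26 lower. The totals also hold 146 microRNA genes (45 higher, 25 lower) and 118 small nuclear RNA genes (36 higher, 23 lower). No minimum length was set for these counts. For a gene of 1 kilobase 1 read was 0.0662 FPKM in DMSO, and for shorter genes it was more. Calls for such short genes can therefore rest on a few reads, and no direction is read from them. Named genes here were chosen after their values were seen. LINC00926, a long non-coding RNA, stood at 34.4 FPKM in DMSO, 101.5 with SD70, 60.6 with MI-503 and 126.0 with both agents. NAPSB, a pseudogene of an aspartic protease, stood at 15.7, 81.0, 37.7 and 77.9 FPKM in the same order. DLEU2, the host of a pair of microRNAs, stood at 9.03, 2.46, 5.81 and 2.26 FPKM. Reads of pseudogenes and of antisense genes can belong to their partners, since the strand setting of the counting is not given in the sources used here.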
